A study of Mus musculus with 2 samples.

Results

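Solute carriers are membrane proteins that move small molecules across cell membranes, and the 78 solute carrier genes described here were chosen by their summed level in oral keratinocytes. A gene was a member if its symbol had the form Slc, number, letter, number and if it had at least 1500 UMIs (unique molecular identifiers, the counted mRNA molecules) summed over both libraries of the study. Of the 27998 genes in the files, 359 had such a symbol and 281 of these had at least 1 UMI. The limit left out 279 of the 359, and Slc1a3 and Slc7a8 were left out by name. Because the members were selected on their summed UMIs, their totals are a description: they ranged from 1659 for Slc25a28 to 189561 for Slc25a5, with a median of 3164. Slc6a9 (1724 UMIs), Slc19a1 (1669) and Slc25a28 (1659) were the last inside the limit, and Slc25a14 (1465), Slc2a12 (1442) and Slc22a23 (1418) the first outside it. Together the members held 0.474% of all UMIs.

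The cells came from the inner cheek lining (buccal mucosa) of 10 pooled female C57BL/6 mice, 12 weeks old, with no treatment or engineered allele named. They were sorted for much CD104, the β4-integrin chain by which basal keratinocytes hold on to the basement membrane, and captured on the 10x Chromium platform. The suspension was divided over 2 technical libraries, so there is 1 independent sample, no test between cell groups was possible, and the spread between libraries is technical. No animal can be told from another in the pool.

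Basal keratinocytes divide, then leave the basement membrane and make the mucosal keratins Krt4 and Krt13 as they differentiate. Solute carriers set what such cells take up and release: amino acid carriers feed protein synthesis, glucose and lactate carriers serve energy metabolism, zinc and copper carriers supply metalloproteins, and the SLC25 family links the mitochondrial matrix with the cytosol. Many work with a partner protein, such as SLC3A2, the heavy chain that brings SLC7A5 to the surface, or basigin and embigin, which do the same for lactate carriers.

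Of 16291 cell barcodes, 15470 remained after barcodes under 500 genes or above 10% mitochondrial UMIs were removed. They were binned by Krt4 plus Krt13 UMIs per 10000 UMIs (low under 80, middle 80 to 350, high from 350) and called cycling at 10 or more UMIs per 10000 of Top2a, Cenpf, Ube2c and Ccnb1, genes of late S, G2 and M phase. Among non-cycling cells, 5007 were low, 3267 middle and 3485 high in these keratins. Among cycling cells, 2608 were low, 1078 middle and 25 high, and the last bin was too small to compare. Levels are given as CPM, UMIs summed over the cells of a bin in 1 library per 1000000 UMIs of that bin. Median UMIs per cell in low- and high-keratin non-cycling cells were 5965 and 14721 in library 1 and 4895 and 11961 in library 2. The bins thus differed in depth per cell. With every cell thinned to 3000 UMIs, 7 members were called higher and 9 lower in high- against low-keratin cells, beside 7 and 10 without thinning. Not all were the same members: 6 of the 7 higher and 8 of the 10 lower were still called. The 8 basal markers summed to 17881 CPM in low and 1979 CPM in high-keratin cells, and Itgb4, the sorted chain, was at 122.9 and 11.79 CPM. The 11 immune markers, all detected, summed to 645.5 and 1443 CPM in low-keratin cells of libraries 1 and 2 against 19.8 and 23.21 CPM in high-keratin cells. Of the 6 fibroblast markers, Dcn made nearly all of the 271.9 CPM in low-keratin cells, with Lum and Col3a1 at 0 there. The libraries shared 104 barcodes. Over all kept cells no member differed by 1.5-fold between the libraries: the log2 difference ran from -0.26 (Slc1a4) to 0.18 (Slc30a7).

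Differences were called by size alone: each library had to show 1.5-fold or more (a log2 ratio of 0.58) with the same sign, and the gene had to average 20 CPM or more over the 2 bins compared. Since this minimum drops members that were nearly absent from 1 bin, the same size rule was also applied, as a choice made after the values were seen, to all genes of at least 1500 UMIs, the members' own limit, which keeps all 78. Some members passed this limit only through the bin where they were highest. High-keratin non-cycling cells held 2109 of 3275 UMIs of Slc27a4, 1496 of 2610 of Slc39a11 and 1387 of 2779 of Slc16a6. Low-keratin non-cycling cells held 1019 of 1767 UMIs of Slc12a4 and 984 of 2222 of Slc29a1. They also held the deciding UMIs of Slc16a13 (702 of 1760), Slc20a2 (610 of 1901), Slc35a1 (692 of 2070) and Slc35a5 (521 of 1784). The same held for the amino acid carriers Slc1a5 (516 of 1756), Slc6a9 (549 of 1724) and Slc15a4 (498 of 1731). The differences of such members are descriptions, and so are the class counts by the wider rule that include them. By the wider rule 39 members were called in at least 1 of the 4 comparisons and 39 in none. The like count over all genes is not given here, so these 2 numbers do not set the members apart from other genes. Shares of all genes are given below for each comparison.

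**Figure D1:**
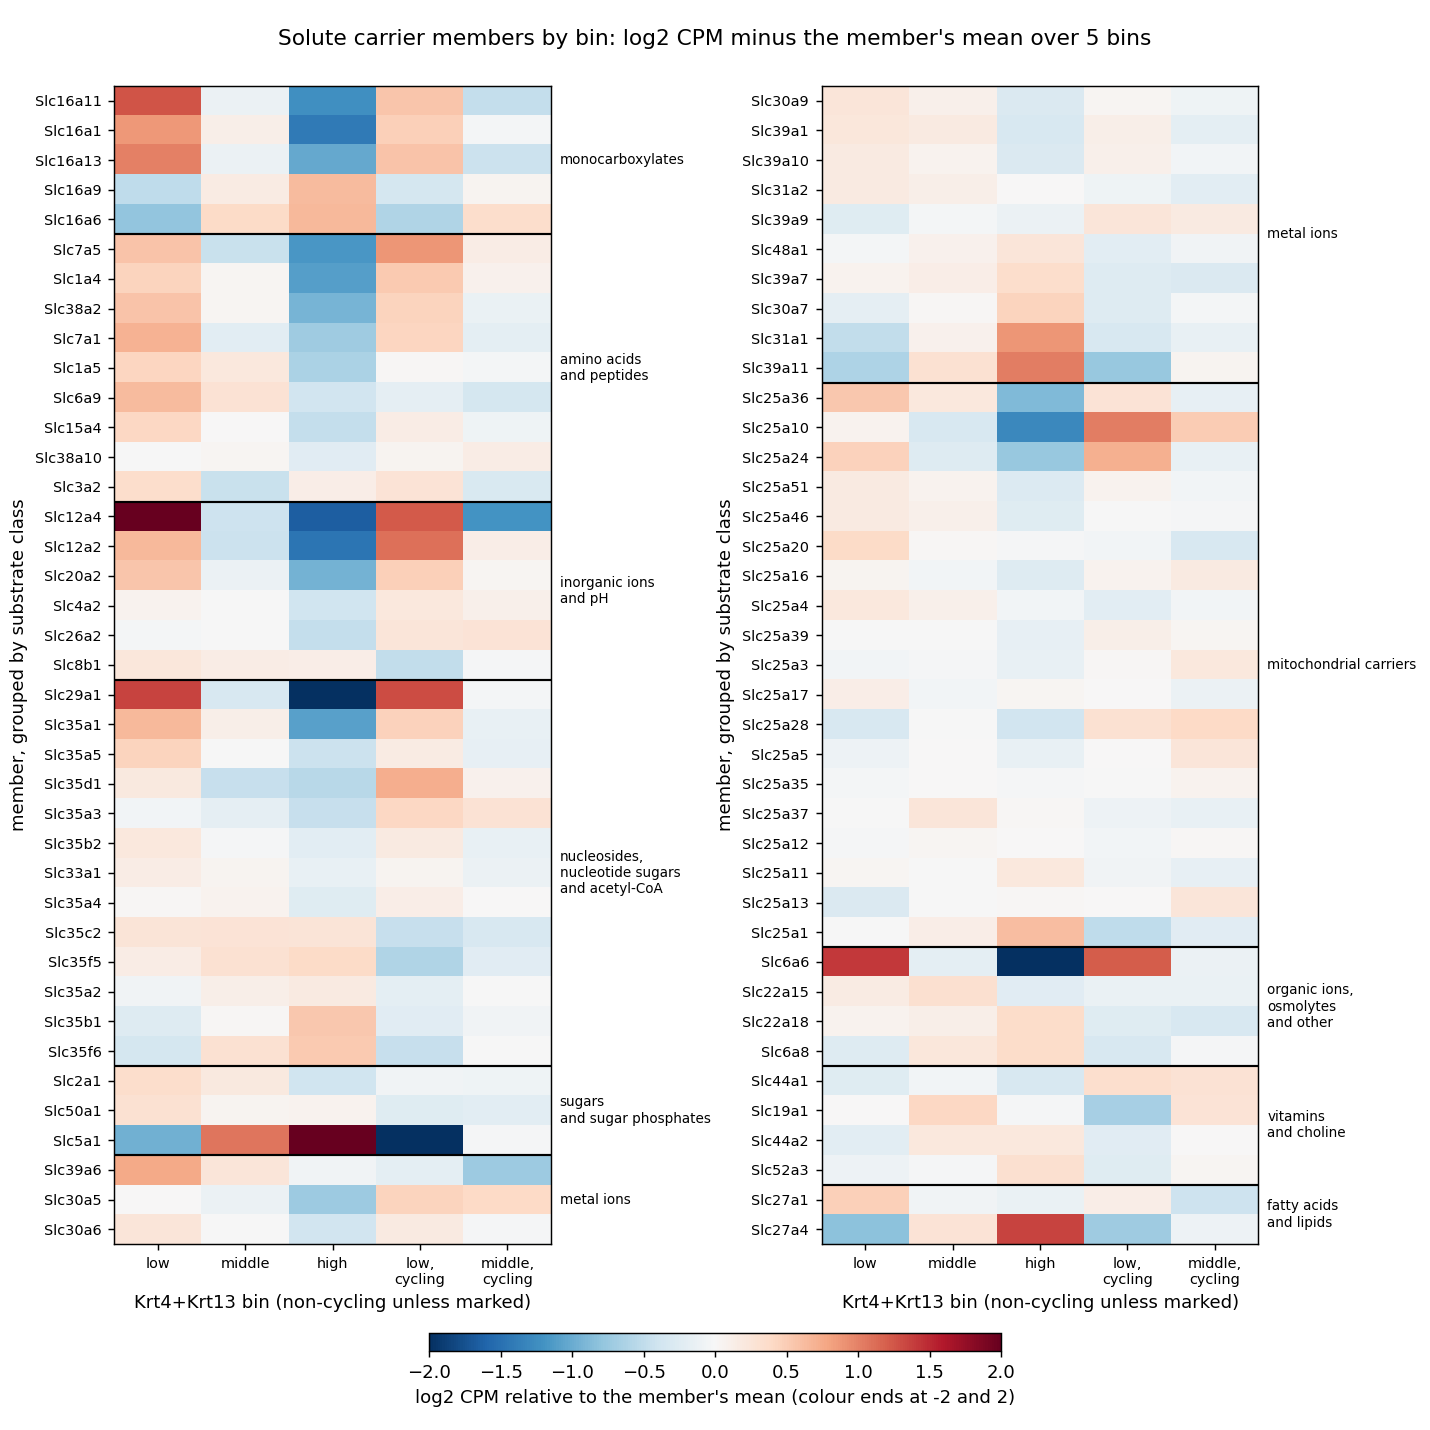
Level of each of the 78 members in 5 bins (columns), as log2 CPM (mean of 2 libraries) minus the member's mean over the bins; red is above and blue below that mean, and colours end at -2 and 2. Members are grouped by substrate class. Slc6a6 and Slc29a1 are deepest blue in high-keratin cells, where Slc5a1 and Slc27a4 are reddest, and most Slc25 members stay pale.

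High- against low-keratin cells, both non-cycling, gave the largest differences among the members. Carriers of taurine (Slc6a6), nucleosides (Slc29a1), potassium with chloride (Slc12a4), lactate (Slc16a1) and large neutral amino acids (Slc7a5) were lower in high-keratin cells, and carriers of glucose with sodium (Slc5a1), fatty acids (Slc27a4) and copper (Slc31a1) were higher. At the 20 CPM minimum, 46 of 78 members were compared: 7 (15.2%) were higher, beside 9.7% of all 4946 genes compared, and 10 (21.7%) were lower, beside 26.3%. By the wider rule 10 of 78 (12.8%) were higher, beside 8.52% of 6957 genes, and 25 (32.1%) were lower, beside 30.8%. The members' counts thus lay near those of all genes, and the median log2 difference of the 78 members was -0.28 beside -0.33 for all genes. The scaling bears on the split: with size factors set by the median of gene ratios, which moved the median of the genes compared at 20 CPM from -0.24 to 0.01, 11 members were higher and 7 lower, and all genes went from 480 higher and 1299 lower to 750 and 768. The 3 members no longer called lower were Slc2a1 (-0.50), Slc39a6 (-0.58) and Slc27a1 (-0.36); the 4 then called higher were Slc39a11, Slc25a1, Slc52a3 and Slc44a2. By the wider rule the same scaling gave 13 higher and 18 lower members, and no called member changed sign. All genes went from 593 higher and 2143 lower to 912 and 1360 by that rule.

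**Figure D2:**
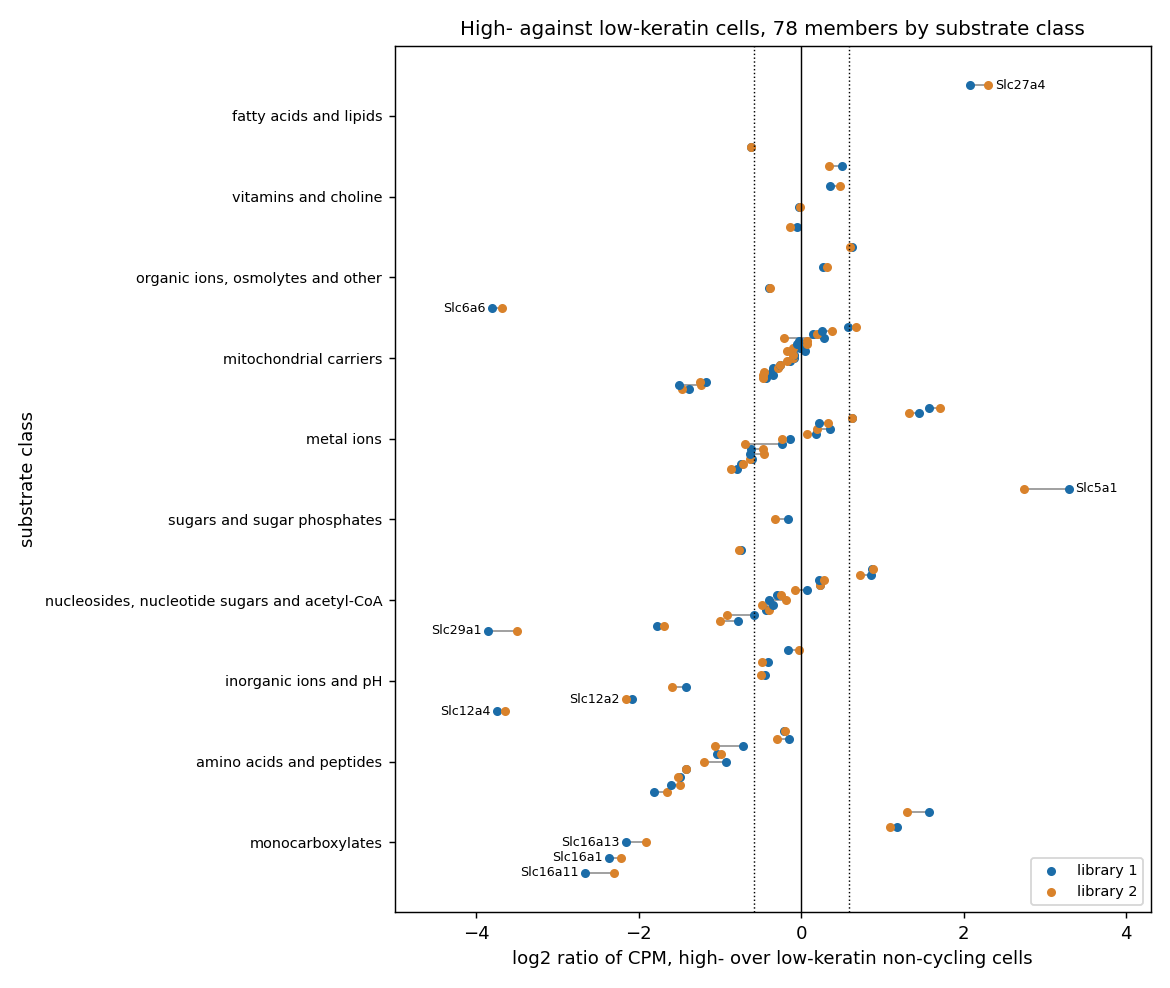
log2 ratio of CPM in high- over low-keratin non-cycling cells for the 78 members, 1 band of points per substrate class, library 1 in blue and library 2 in orange, joined by a line; dotted lines mark 1.5-fold. Slc6a6 lies at -3.80 and -3.68 and Slc5a1 at 3.29 and 2.74, and the libraries' points for a member lie close together.

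The largest decrease was that of Slc6a6, which encodes the taurine transporter (chr6:91684053-91759066 on the plus strand; build GRCm38). Low-keratin cells held 269.2 and 274.5 CPM in libraries 1 and 2, middle cells 84.3 and 93.63 CPM, and high-keratin cells 19.28 and 21.39 CPM. High-keratin cells were thus 13.4-fold below low-keratin cells, with a 95% interval of -3.83 to -3.64 on the log2 scale that covers counting error only, as all intervals here. The libraries of each bin lay close to each other and far from those of the next bin. Cycling low-keratin cells, at 239.7 and 231.9 CPM, were within 1.5-fold of the non-cycling ones. Slc6a8, the creatine transporter of the same family, went the other way, from 27.28 and 28.34 CPM to 42.16 and 42.85 CPM, which is 1.53-fold and just past the limit. The organic cation carrier relatives Slc22a15 and Slc22a18 stayed within 1.5-fold in this comparison.

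Of the 6 carriers of inorganic ions, 3 were lower in high-keratin cells by the wider rule, beside 30.8% of all genes, and none was higher, beside 8.52%. Slc12a4, the potassium-chloride cotransporter KCC1 (chr8:105943590-105966097, minus strand), was at 36.58 and 33.01 CPM in low, 6.079 and 6.587 CPM in middle and 2.741 and 2.632 CPM in high-keratin cells. The last pair rests on 135 UMIs against 1019 in low-keratin cells, and the difference was 12.9-fold (interval -3.97 to -3.44 on the log2 scale). The sodium-potassium-chloride cotransporter Slc12a2, which moves ions inward where Slc12a4 moves them out, was at 83.42 and 83.6 CPM in low and 19.71 and 18.72 CPM in high-keratin cells. Unlike Slc12a4, which was lower in cycling than in non-cycling low-keratin cells, it stood at 116.6 and 111.6 CPM in the cycling ones, an increase under 1.5-fold. The phosphate carrier Slc20a2 was 2.83-fold lower, from 21.4 and 20.31 CPM to 8.006 and 6.763 CPM. The sulfate carrier Slc26a2 and the anion exchanger Slc4a2 stayed within 1.5-fold in all 4 comparisons, and the mitochondrial sodium-calcium exchanger Slc8b1 did so in the keratin comparisons. Among the ion pumps listed as partners, 4 of 8 compared were lower and 1 higher, beside 26.3% and 9.7% of all genes at the 20 CPM minimum. The gene higher was Atp6v0d1, of the proton pump, at 63.49 CPM in low and 173.6 CPM in high-keratin cells.

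Slc29a1, the equilibrative nucleoside transporter ENT1 (chr17:45585200-45599606, minus strand), was at 30.88 and 36.74 CPM in low, 10.08 and 11.21 CPM in middle and 2.132 and 3.254 CPM in high-keratin cells. The difference between the ends was 12.8-fold (interval -3.89 to -3.36), on 138 UMIs in the high bin. Empty droplets were not analysed here, so levels this low cannot be told apart from free RNA. Cycling cells of the low bin held 31.05 and 34.01 CPM, the same as non-cycling ones within 1.5-fold. Slc35b2, a carrier of the sulfate donor PAPS whose gene lies 17528 bases from Slc29a1 on the other strand, stayed within 1.5-fold of its low-keratin level of 28.66 and 31.21 CPM.

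The 11 Slc35 members are mostly carriers of nucleotide sugars into the Golgi and endoplasmic reticulum. In high-keratin cells 2 were higher and 2 lower by the wider rule, beside 8.52% and 30.8% of all genes. Slc35a1, which carries CMP-sialic acid, was 3.32-fold lower in high-keratin cells (6.875 and 7.421 CPM against 23.42 and 23.97 CPM). Slc35a5 was 1.85-fold lower, which was not called with median-of-ratios scaling. Slc35b1, which brings ATP into the endoplasmic reticulum, was higher, at 107.9 and 103.8 CPM against 59.34 and 62.57 CPM. Slc35f6, of unsettled substrate, was also higher, at 31.89 and 32.03 CPM against 17.47 and 17.36 CPM. The other 7 did not pass the rule in this comparison, Slc35a2 (UDP-galactose) and Slc35a3 (UDP-N-acetylglucosamine) among them.

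The 5 members of the monocarboxylate family, Slc16, all passed the wider rule and took opposite directions. In high-keratin cells 2 were higher, beside 8.52% of all genes, and 3 lower, beside 30.8%. Slc16a1, the lactate and pyruvate carrier MCT1 (chr3:104638668-104658462, plus strand), was 4.89-fold lower in high-keratin cells, from 39.13 and 38.46 CPM to 7.615 and 8.262 CPM. Slc16a11 was at 61.7 and 54.61 CPM in low, 21.28 and 23.45 CPM in middle and 9.747 and 11.04 CPM in high-keratin cells. Its neighbour Slc16a13 was at 24.73 and 23.25, 12 and 10.19, and 5.57 and 6.178 CPM in the same bins. These 2 genes of chromosome 11 (70212752 to 70216417 and 70216789 to 70221064) face each other on opposite strands, 371 bases apart. Slc16a9, a carnitine carrier, was higher instead, at 22.25 and 23.54 CPM in low and 50.47 and 50.3 CPM in high-keratin cells. Slc16a6, which carries ketone bodies, was at 9.88 and 10.55 CPM in low, 24.72 and 21.09 CPM in middle and 29.5 and 25.92 CPM in high-keratin cells. Of the chaperones of this family, Emb (embigin) was at 178.2 CPM in low and 54.69 CPM in high-keratin cells, past the limit, and Bsg (basigin) at 606.1 and 467.6 CPM, which is not. The 216 cells with immune or glandular markers held 4.43% of the Slc16a11 UMIs, the highest share of any member beside a median of 1.26%; without those cells the called members were 8 higher and 10 lower.

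Glucose carriers also took opposite directions. Slc5a1, the sodium-glucose cotransporter SGLT1 (chr5:33104219-33162870, plus strand), was at 3.206 and 4.664 CPM in low, 16.88 and 15.37 CPM in middle and 31.46 and 31.26 CPM in high-keratin cells. Its fold of 8.11 (interval 2.73 to 3.29 on the log2 scale) was the highest increase of the 78 members, and its mean of the 2 bins was under 20 CPM, so it passed by the wider rule alone. Of its 2237 UMIs, 1578 lay in high-keratin non-cycling cells, so it became a member only through the bin where it was higher. Its low-keratin level rests on 114 UMIs and, as for Slc29a1 in the high bin, cannot be told apart from free RNA. Slc2a1, the facilitative glucose transporter GLUT1, was at 106.5 and 108.7 CPM in low and 63.88 and 63.72 CPM in high-keratin cells, 1.69-fold lower under the main scaling. Slc50a1, the SWEET-type sugar carrier, did not pass. Of 12 glucose and lactate handling genes compared, 3 were lower and none higher, at the same background of 26.3% and 9.7%: Txnip, an inhibitor of glucose uptake (158.2 and 25.26 CPM in low and high-keratin cells), the glycolytic enzyme Pfkp (93.88 and 43.82 CPM) and the hypoxia factor Hif1a (93.55 and 46.38 CPM).

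Fatty acid transport protein 4, encoded by Slc27a4 (chr2:29802634-29817522, plus strand), was the most increased member above the 20 CPM minimum. Its levels were 9.88 and 8.539 CPM in low, 20.32 and 19.29 CPM in middle and 41.55 and 42.19 CPM in high-keratin cells, a 4.56-fold difference (interval 2.00 to 2.37). The protein activates long-chain fatty acids and is needed for the skin barrier. Its relative Slc27a1 was 1.53-fold lower, from 43.25 and 46.14 CPM to 28.28 and 30.01 CPM, and was no longer called under either other scaling.

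The bases before the transcript start of 2 members that were higher and 2 that were lower in high-keratin cells are shown because their promoters differ in GC boxes, the GGGCGG motif bound by Sp-family factors, marked in capitals on either strand. They are the 250 bases upstream of the start, from the RefSeq promoter table (GRCm38.p6), 5′ to 3′ on the gene's strand: chr5:33103969-33104218 (plus strand) for Slc5a1, chr2:29802384-29802633 (plus strand) for Slc27a4, chr8:105966116-105966365 (minus strand) for Slc12a4 and chr3:104638414-104638663 (plus strand) for Slc16a1.
Slc5a1 upstream bases: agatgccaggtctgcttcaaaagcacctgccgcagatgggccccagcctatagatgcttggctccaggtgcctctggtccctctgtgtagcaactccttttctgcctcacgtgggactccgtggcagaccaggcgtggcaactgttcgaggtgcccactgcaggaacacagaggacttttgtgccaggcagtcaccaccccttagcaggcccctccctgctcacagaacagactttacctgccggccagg
Slc27a4 upstream bases: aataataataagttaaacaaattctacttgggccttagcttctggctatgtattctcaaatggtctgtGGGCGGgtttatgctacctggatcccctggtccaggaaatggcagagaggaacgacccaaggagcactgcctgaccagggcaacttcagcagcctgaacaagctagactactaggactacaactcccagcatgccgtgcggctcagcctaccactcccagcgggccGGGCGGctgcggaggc
Slc12a4 upstream bases: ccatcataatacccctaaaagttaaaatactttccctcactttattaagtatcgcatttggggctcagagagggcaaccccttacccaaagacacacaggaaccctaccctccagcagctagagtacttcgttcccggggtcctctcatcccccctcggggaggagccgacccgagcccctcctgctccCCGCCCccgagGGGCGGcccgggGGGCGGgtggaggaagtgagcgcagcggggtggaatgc
Slc16a1 upstream bases: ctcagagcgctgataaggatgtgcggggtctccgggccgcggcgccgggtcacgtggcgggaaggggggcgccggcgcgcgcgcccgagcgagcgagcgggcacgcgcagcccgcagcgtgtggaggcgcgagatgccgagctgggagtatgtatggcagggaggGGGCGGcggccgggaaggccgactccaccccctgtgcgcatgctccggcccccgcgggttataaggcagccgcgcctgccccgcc
The Slc5a1 window held no GC box and 6 CpG dinucleotides, that of Slc27a4 2 boxes and 8 CpG, that of Slc12a4 3 boxes and 13 CpG, and that of Slc16a1 1 box and 37 CpG. Of the 78 members, 60 had an entry in the table. A GC box was present before 42 of these (70%), beside 66.9% of 5425 genes of at least 1500 UMIs and 32.7% of all 32851 promoters. It was present for 6 of 8 higher and 16 of 18 lower members with an entry, so the motif occurred in both directions. For the other motifs, the members' counts out of 60 are set beside the share of genes of at least 1500 UMIs and then the share of all promoters. The E-box CACGTG matched 10 members (16.7%), beside 10.6% and 6.02%. The metal response core TGCACNC matched 10 (16.7%), beside 12.2% and 10.4%, and its form TGCGCNC 18 (30%), beside 26.5% and 12.5%. The amino acid response core TGATGNAA matched 1 (1.67%), beside 2.36% and 3.45%, the AP-1 site TGANTCA 4 (6.67%), beside 5.25% and 6.75%, and CCAAT 19 (31.7%), beside 40.1% and 33.8%. The shares of members and of these genes count a gene once if any of its promoters matched. Motifs were sought on both strands, no motif was removed for overlapping another, and a match is a description of letters in the window.

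Amino acid carriers were the class with the most members called lower: 7 of 9 by the wider rule, beside 30.8% of all genes, and none higher, beside 8.52%, with a class median of -1.06. The amino acid heterodimer partners separated. Slc7a5, the LAT1 light chain for leucine and other large neutral amino acids, was at 53.26 and 52.45 CPM in low, 27.59 and 24.7 CPM in middle and 15.19 and 16.67 CPM in high-keratin cells. Slc3a2, the CD98 heavy chain it pairs with, was at 164 and 168.4 CPM, 90.3 and 101.1 CPM, and 141.5 and 146.8 CPM in the same bins. Slc3a2 was thus called lower in middle cells (1.74-fold) but not in high-keratin cells. Slc38a2, a sodium-coupled carrier of small neutral amino acids, was at 176.2 and 172.4 CPM in low and 62.92 and 60.39 CPM in high-keratin cells. Slc7a1, for arginine and lysine, was at 38.47 and 35.73 CPM in low and 14.4 and 13.38 CPM in high-keratin cells. Lower too were the neutral amino acid exchangers Slc1a4 (2.92-fold) and Slc1a5 (2.08-fold) and the glycine transporter Slc6a9 (2.02-fold). So was the lysosomal peptide and histidine carrier Slc15a4 (1.85-fold), and each of these 4 was below 20 CPM on average. With median-of-ratios scaling the class had 6 lower, without Slc15a4, while all genes called lower went from 2143 to 1360. Slc38a10 did not pass. In the amino acid response list, 3 of 10 genes compared were higher in high-keratin cells, beside 9.7% of all genes: Asns, asparagine synthetase (59.34 against 35.36 CPM), Nupr1 (59.98 against 26.32 CPM) and Eif4ebp1 (123.7 against 81.45 CPM). Cth, which makes cysteine, was lower (11.41 against 42.34 CPM).

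The 13 metal ion carriers had 3 members higher and 3 lower by the wider rule, beside 8.52% and 30.8% of all genes. Their median log2 difference was -0.18. Scaled by the median of gene ratios instead, this class kept its 3 higher calls and had 0 lower. The change of scaling moved all genes too, from 593 to 912 called higher and from 2143 to 1360 called lower. The loss of lower calls is thus not particular to metal ion carriers. Slc31a1, the copper importer CTR1 (chr4:62360727-62391769, plus strand), was at 17.01 and 19.23 CPM in low, 24.4 and 29.72 CPM in middle and 46.38 and 48.18 CPM in high-keratin cells, 2.61-fold from end to end. Slc31a2, which lies 62315 bases before it on the same strand, was at 26.56 and 27.34 CPM in low and 24.24 and 23.29 CPM in high-keratin cells, within 1.5-fold. Slc39a11, a zinc carrier, was 3.12-fold higher, from 9.749 and 9.257 CPM to 29.07 and 30.27 CPM. The zinc importer Slc39a6 was lower, at 83.49 and 85.68 CPM against 48.12 and 47.16 CPM. Of the zinc exporters, Slc30a7 was higher (1.54-fold), Slc30a5 (1.66-fold) and Slc30a6 (1.53-fold) lower and Slc30a9 not called. Slc30a5 and Slc30a6 encode the 2 chains of 1 heterodimer of the secretory pathway. Among metal-handling partners, 3 of 9 compared were higher and 3 lower, beside 9.7% and 26.3% of all genes. Mt4, the metallothionein of stratified epithelia, was at 1190 CPM in low and 12271 CPM in high-keratin cells, Tfrc, the transferrin receptor, at 19.1 and 49.63 CPM, and the ferritin chain Fth1 at 2926 and 1020 CPM. The overlaps of Slc31a1 with Cdc26 and of Slc39a6 with Elp2 are on opposite strands, as for 32 members in all that overlap a gene on the other strand, and whether the counting used strand was not given in the sources used here.

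Of the 19 members of the Slc25 family, none was higher in high-keratin cells by the wider rule, beside 8.52% of all genes. By the same rule 3 were lower, beside 30.8% of all genes. They were the dicarboxylate carrier Slc25a10 (2.57-fold), the pyrimidine nucleotide carrier Slc25a36 (2.68-fold) and the calcium-regulated ATP-magnesium carrier Slc25a24 (2.31-fold). Slc25a5, the ADP/ATP carrier ANT2, made 29.0% of all member UMIs, and it was at 1256 and 1402 CPM in low, 1361 and 1491 CPM in middle and 1246 and 1303 CPM in high-keratin cells. The phosphate carrier Slc25a3 was at 597 and 561.6 CPM in low and 560.6 and 524.3 CPM in high-keratin cells, and the other adenine nucleotide carrier Slc25a4 at 318.8 and 324.5 CPM and 266.6 and 271.4 CPM. Of the 28 members that varied by under 1.5-fold over all 5 bins, 13 were of this family, from Slc25a12 (1.07-fold) on. The share of all genes that varied so little is not given here, so the count sets the family beside other members only. The annotation holds 1 pseudogene named for Slc25a5, with which reads could be shared. Slc25a17 sits in peroxisomes and Slc25a46 in the outer mitochondrial membrane, so the family name does not give 1 place. The citrate carrier Slc25a1 was at 22.12 and 19.95 CPM in low and 33.11 and 31.92 CPM in high-keratin cells, past 1.5-fold in library 2 alone under the main scaling and in both libraries under both other scalings. The 4 carriers of vitamins and choline (Slc44a1, Slc44a2, Slc52a3 and Slc19a1) had no call in any of the 4 comparisons under the main scaling.

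Middle against low-keratin cells gave fewer calls, with Slc12a4, Slc29a1, Slc6a6 and Slc5a1 again the most different. Of 50 members compared with low-keratin cells at the 20 CPM minimum, 9 (18%) were lower, beside 7.48% of 5215 genes, and 2 (4%) were higher, beside 4.64%. By the wider rule 12 of 78 (15.4%) were lower, beside 7.55% of 6957 genes, and 6 (7.69%) higher, beside 5.06%. The 9 were Slc12a4 (5.49-fold), Slc29a1 (3.17-fold), Slc6a6 (3.06-fold), Slc16a11 (2.60-fold), Slc12a2 (2.11-fold), Slc7a5 (2.02-fold), Slc7a1 (1.89-fold), Slc3a2 (1.74-fold) and Slc16a1 (1.69-fold), and the wider rule added Slc16a13, Slc25a24 and Slc20a2. The 2 higher were Slc35f6 and Slc16a9, and the wider rule added Slc5a1 (4.16-fold), Slc16a6 (2.24-fold), Slc27a4 (2.15-fold) and Slc39a11 (1.90-fold). This comparison shares its low-keratin cells with the one above.

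Finer steps were seen when the non-cycling cells were cut into 8 equal groups by Krt4 plus Krt13, from a median of 23.41 to 788.7 UMIs per 10000, with median UMIs per cell from 5380 to 16918. The highest level was in the first group for 20 members, in the last for 14 and in between for 44, and 28 varied by under 1.5-fold. The like counts over all genes are not given here. Since the highest group was the same in both libraries for 39 of 78 members, the place of a maximum is loosely set for the others. Slc6a6 stayed level over the first 3 groups (273.5, 291.6 and 266.8 CPM) and then went through 183.9, 79.13, 46.82 and 26.68 to 12.97 CPM. Slc12a4 had a like course, at 35.2, 37.43 and 33.87 CPM and then 19.1, 5.733 and 2.915 CPM, with 2.952 and 2.359 CPM in the last groups. Slc29a1 was lower at every step, from 39.62 to 2.072 CPM, as were Slc7a5 (66.23 to 14.98 CPM), Slc16a11 and Slc1a5, while no member was higher at every step. Slc16a1 was highest in the third group of both libraries, at 43.19 CPM on average, beside 35.41 CPM in the first and 5.252 CPM in the last.

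Slc2a1 held between 101.4 and 106.9 CPM over the first 5 groups and then stood at 88.59, 71.06 and 54.13 CPM. Slc3a2 had its lowest levels in the middle, at 203 CPM in the first group, 90.27 and 91.19 CPM in the fifth and sixth, and 172.2 CPM in the last. Of the members that were higher with keratin, Slc5a1 was at 4.092, 3.684 and 3.467 CPM in the first 3 groups and at 7.92, 15.88, 21.61, 27.71 and 35.74 CPM in the others. Slc27a4 went from 10.25 CPM in the first to 51.57 CPM in the last group, and Slc31a1 from 20.05 to 52.57 CPM. Slc16a6 was at 24.11 CPM in the fifth group and between 25.51 and 28.81 CPM after it, so most of its difference lay between the third group (10.74 CPM) and the fifth.

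**Figure D3:**
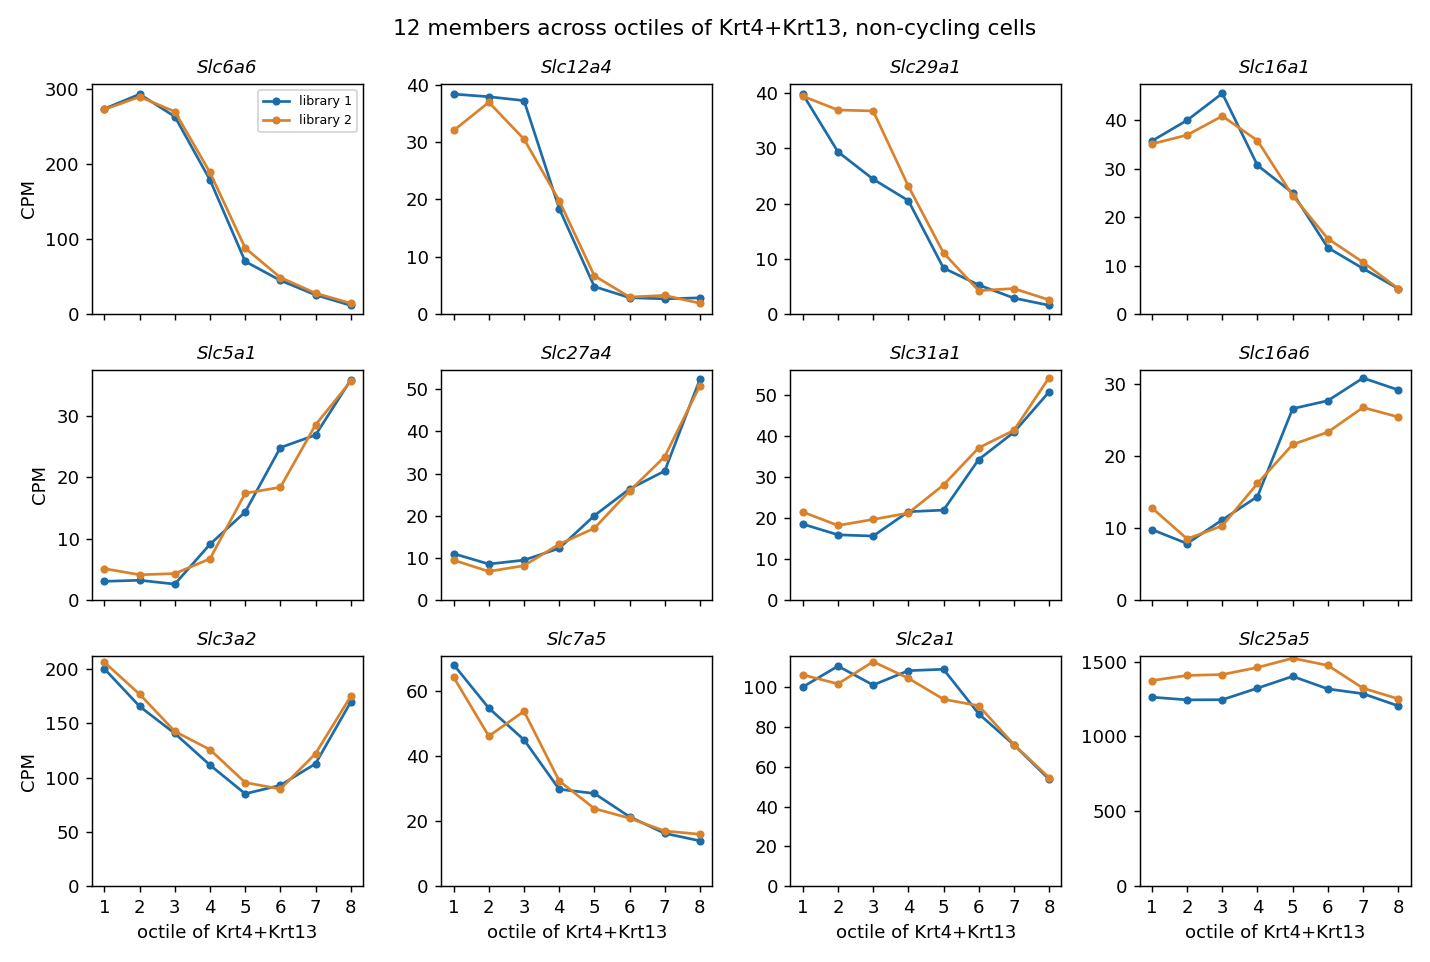
CPM (vertical axes, from 0, each panel its own scale) of 12 members in 8 equal groups of non-cycling cells from the lowest to the highest Krt4 plus Krt13 (horizontal axes), library 1 in blue and library 2 in orange. Slc6a6 and Slc12a4 stay level over the first 3 groups and are low from the fifth on, Slc5a1 and Slc27a4 are highest in the last group, and Slc3a2 is lowest in the fifth and sixth.

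Few members passed the rule between cycling and non-cycling cells of the same keratin bin: Slc25a10 was higher and Slc39a6 lower in cycling cells of both bins. In the low bin, 51 members were compared at the 20 CPM minimum: 1 (1.96%) was higher, beside 8.79% of 5481 genes, and 3 (5.88%) were lower, beside 3.38%. By the wider rule 1 of 78 (1.28%) was higher, beside 7.52%, and 8 (10.3%) were lower, beside 4.24%. In the middle bin, 46 were compared, of which 1 (2.17%) was higher, beside 9.04% of 5213 genes, and 1 (2.17%) lower, beside 2.26%. By the wider rule 1 of 78 (1.28%) was higher, beside 8.21%, and 3 (3.85%) were lower, beside 3.09%. The 10 G2 and M phase markers, 4 of which made the bins, summed to 307.1 CPM in non-cycling and 5519 CPM in cycling low-keratin cells. The 10 S phase markers summed to 318 and 614.6 CPM, so S phase markers were detected on both sides.

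The member higher in cycling cells was Slc25a10, the mitochondrial carrier of malate and succinate (chr11:120491840-120499187, plus strand). In low-keratin cells it was at 40.99 and 37.06 CPM in cycling and 20.54 and 19.88 CPM in non-cycling cells, and in middle cells at 30.09 and 24.16 CPM against 16.24 and 14.51 CPM. The cycling libraries lay above the non-cycling ones in both bins. With cells thinned to 3000 UMIs the middle bin's log2 difference was 0.50 and no longer called. In library 2 alone that difference was 0.74, with a mean of the 2 groups under 20 CPM, so it was not called there either.

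Slc39a6, a zinc importer, was lower in cycling cells of both bins: 43.33 and 43.72 CPM against 83.49 and 85.68 CPM in low, and 30.44 and 29.66 CPM against 58.23 and 59.99 CPM in middle cells. Lower in low-keratin cycling cells were also Slc16a11 (37.34 and 33.64 CPM against 61.7 and 54.61 CPM) and Slc12a4 (20.7 and 18.67 CPM against 36.58 and 33.01 CPM). The wider rule added Slc5a1, Slc6a9, Slc35f5, Slc35c2 and Slc8b1 in the low bin, and Slc5a1 and Slc6a9 in the middle bin. In the low bin the Slc5a1 call rests on 36 UMIs in cycling and 114 in non-cycling cells. Slc5a1 was at 6.863 and 8.159 CPM in cycling middle cells against 16.88 and 15.37 CPM in non-cycling ones, with 91 and 407 UMIs. Median Krt4 plus Krt13 in these 2 groups was 134.1 and 182.5 UMIs per 10000 in library 1 and 133.3 and 189.5 in library 2, so the cycling cells of the middle bin were also lower in the keratins that Slc5a1 went with, and the part of this in the result was not tested.

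Over the 78 members the log2 differences in the 2 keratin bins had the same sign for 66, with a median absolute distance of 0.12 and the farthest 0.56 (Slc8b1). Members called in 1 bin alone were not tested for a difference between the bins. Of 12 glucose and lactate handling genes compared, 1 was lower and 0 higher in cycling cells of each bin. The glycolytic enzyme Aldoa was at 522.2 CPM in non-cycling and 172.8 CPM in cycling low-keratin cells, and at 556.8 and 232.6 CPM in middle cells. Of 6 channels and water pores compared in the low bin, 1 was higher and 2 lower, and of 7 in the middle bin 0 and 1. The water and glycerol pore Aqp3 was at 400.7 and 259.4 CPM, and at 697.8 and 411.1 CPM, in the same order. Clic1 was higher in the low bin, at 647.2 and 1060 CPM. All genes higher and lower were 8.79% and 3.38% in the low bin and 9.04% and 2.26% in the middle bin.

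**Figure D4:**
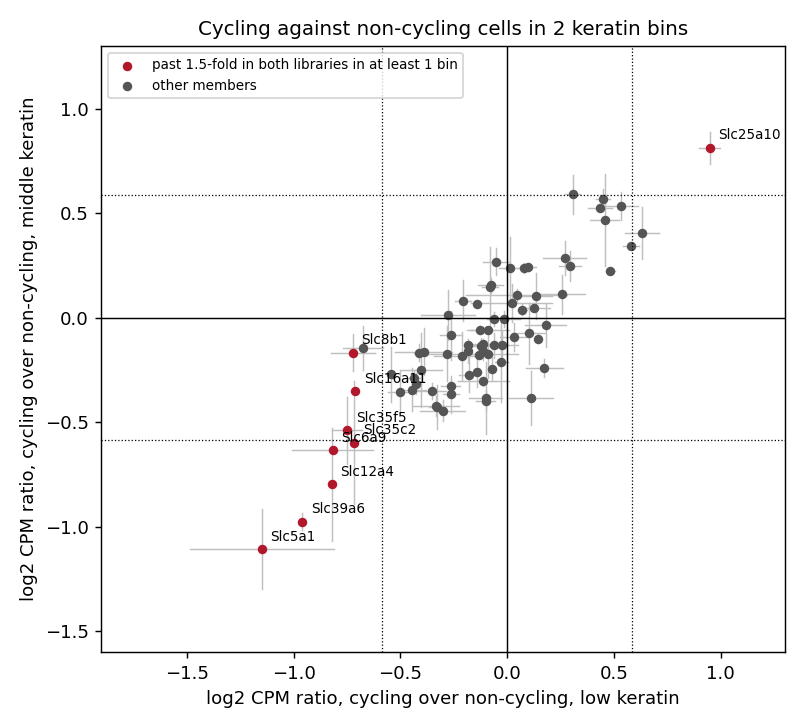
log2 ratio of CPM in cycling over non-cycling cells, low-keratin bin on the horizontal and middle-keratin bin on the vertical axis, 1 point per member at the mean of the libraries with grey lines to each library; dotted lines mark 1.5-fold and red points passed it in both libraries of at least 1 bin. Slc25a10 lies alone at the upper right, Slc39a6 and Slc5a1 at the lower left, and most members lie within the dotted lines.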

How the data were processed

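The study measured mRNA of single sorted buccal keratinocytes in 2 technical libraries of 1 suspension. The deposited values are UMI counts per gene and barcode, made by the authors with Cell Ranger on mm10, per the submitters' processing notes, which name no version; barcodes had been filtered before deposit, the lowest holding 3149 UMIs. The libraries held 67962712 and 73935792 UMIs. The members, substrate classes and gene lists were chosen with earlier results of these data known.

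Counts were summed per bin and library and scaled to 1000000 (Python 3.11.15, numpy 2.4.6, pandas 2.3.3). With 1 independent sample no p-value is given: calls rest on size in both libraries, and 95% intervals are exact binomial intervals of the ratio (scipy 1.17.1), for counting error only. Members named with values in both libraries were up to 8 per direction and comparison, taken by the smaller library difference, and the member with the most UMIs in each class; the other members, also those given with values in both libraries (such as Slc5a1, Slc16a6 and Slc39a11), were picked after their values were seen. Gene locations are from GENCODE M21 (27645 of 27998 identifiers matched, all 78 members). No doublet caller was run. UMIs tag 1 end of a transcript. Apart from member totals, shares of UMIs and the pick of 1 member per class, levels were not compared between genes. A planned comparison within high-keratin cells by Krt16, S100a8 and S100a9 was not made, since 2 and 8 cells qualified. Alternatives were other scalings, minimums, folds, bins and cell filters.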

Additional observations from a re-analysis of the deposited data

How the results depend on the processing

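Of 558 values of the 31 named differences under 18 alternatives, 504 were still called, 54 were not and 0 changed sign. Part of the 504 was fixed in advance. With no minimum and at 1500 UMIs no call could be lost, since for members both only widen the main rule. With 1 library left out the 1.5-fold was kept by construction, and only the 20 CPM minimum could drop a call. The alternatives chosen after seeing the data were 4 (genes of at least 1500 UMIs, no stress keratin cells, no barcodes of both libraries, cells of at least 8000 UMIs). Counts of called members moved by more than 1.5 times as follows, main counts first. High against low keratin, higher (7): 11 with median-of-ratios scaling, 1 at 50 CPM and 3 at 2-fold; lower (10): 5 at 50 CPM, 25 with no minimum and 25 at 1500 UMIs. Middle against low, higher (2): 0 at 50 CPM, at 2-fold and with means over cells, 1 with cells thinned to 3000 UMIs and with keratin limits of 40 and 500, and 6 with no minimum and at 1500 UMIs; lower (9): 3 at 50 CPM and 5 at 2-fold. Cycling, low keratin, higher (1): 0 at 50 CPM and at 2-fold and 2 with means over cells; lower (3): 1 at 50 CPM, 0 at 2-fold, and 8 with no minimum and at 1500 UMIs. Cycling, middle keratin, higher (1): 0 at 50 CPM and at 2-fold, 2 with the strict cell filter, with cycling limits of 20 and 5 and with cells of at least 8000 UMIs, and 4 with keratin limits of 40 and 500; lower (1): 0 at 50 CPM and at 2-fold, 2 with thinned cells and with keratin limits of 40 and 500, and 3 with no minimum and at 1500 UMIs. Fewer genes compared or a higher limit makes the counts at 50 CPM and 2-fold smaller by construction. With no minimum, or at 1500 UMIs, which all members pass, calls can only be added, also by construction. For the rest the cause was not tested. With 1 library left out, counts ranged from 7 to 8 (high against low, higher) and 11 to 13 (lower), 3 to 3 and 9 to 9 (middle against low), 1 to 3 and 3 to 3 (cycling, low keratin), and 1 to 3 and 1 to 1 (cycling, middle keratin). Without library 2 the 3 higher in cycling low-keratin cells, and without library 1 the 3 higher in cycling middle cells, rest on 1 library's size alone; Slc25a10, the member called with both libraries, is not among the 3 in middle cells, where its mean in library 2 is under 20 CPM. Leaving out the stress keratin cells, the shared barcodes or the immune and glandular marker cells moved none of the 8 counts by more than 1. The alternatives of the comparison by Krt16, S100a8 and S100a9 were not run, since that comparison was not made. No paired analysis was possible because no result comes from a test and both libraries belong to 1 group.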
